A study of Mus musculus with 10 samples.

Results

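The genes described here are Hmgcs1, Idi1, Fdps, Fdft1, Sqle, Dhcr7 and Insig1, which were chosen by name as genes of cholesterol synthesis. All 7 of the listed symbols had a value in every sample, among 14796 named genes in the deposited table. RNA sequencing was run on total RNA of mouse telencephalon, the forebrain region that gives rise to cortex and basal ganglia, at embryonic day 12. Of the 10 samples, 2 were labelled null for Polr1a, 3 had its missense allele C1559F, and 5 were wild type. Strain and zygosity are not stated in the labels. Polr1a codes for the largest subunit of the polymerase that transcribes ribosomal RNA.

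The null samples were compared with wild types 1 and 2, whose titles begin like theirs (the null set). The missense samples were compared with wild types 3, 4 and 5, whose titles share another beginning with theirs (the missense set). What the title numbers stand for is not stated. No label says whether samples came from separate litters, so p-values here reflect only the variation among these 10 samples, which may be technical.

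Cells make cholesterol from acetyl-CoA through mevalonate, isoprenoid units, squalene and lanosterol. Transcription of most of the enzymes is driven by SREBP2, a membrane-bound transcription factor that is released when sterols in the endoplasmic reticulum run low and is held back there by Insig proteins when sterols are plentiful. The embryonic brain comes to rely on its own synthesis because lipoproteins of the blood pass poorly into it, and loss of Dhcr7 function causes Smith-Lemli-Opitz syndrome, a disorder with brain malformations.

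SREBP2 acts at sterol regulatory elements, usually next to sites of the factors NF-Y and Sp1, and the stretches before the starts of Hmgcs1 and Insig1 are shown for an enzyme gene in which such letters were found and for the feedback gene. The sequences are RefSeq's for GRCm38.p6, another build than the GRCm39 named for the deposited table. They are given 5′ to 3′ on the plus strand, with matches to TCACNCCAC (the core of a sterol regulatory element) and to CCAAT (the NF-Y box) in capitals, each searched on both strands. The Insig1 stretch ends before the earliest start that GENCODE M21 gives the gene.
Hmgcs1, chr13:119690101-119690350: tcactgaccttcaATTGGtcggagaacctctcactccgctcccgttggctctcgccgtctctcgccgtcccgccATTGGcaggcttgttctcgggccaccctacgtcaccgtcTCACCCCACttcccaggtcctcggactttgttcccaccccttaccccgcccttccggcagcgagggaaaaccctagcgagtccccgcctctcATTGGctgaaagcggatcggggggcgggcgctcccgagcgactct
Insig1, chr5:28071162-28071362: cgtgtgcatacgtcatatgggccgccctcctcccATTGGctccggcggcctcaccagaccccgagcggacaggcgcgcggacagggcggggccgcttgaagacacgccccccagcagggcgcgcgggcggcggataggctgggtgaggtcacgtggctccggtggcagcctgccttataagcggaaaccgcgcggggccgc

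The Hmgcs1 window held 1 match to the sterol regulatory element core, 129 to 137 bases before the start, and 3 NF-Y boxes. Promoter windows of 250 bases were matched for 4 of the 7 genes, Hmgcs1, Idi1, Dhcr7 and Insig1. The core lay in a window of 1 of the 4, Hmgcs1, and its letters are not in the windows of Insig1, Idi1 and Dhcr7. Of 27025 genes, 1.22% had the core in at least 1 window. An NF-Y box lay in at least 1 window of each of the 4, against 37.5% of all genes, and so did GGGCGG, the GC box to which Sp1 binds, against 35.4%. None of the matches in the Hmgcs1 and Insig1 windows overlapped. These are matches of letters and do not show that a factor binds there.

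The genes were among the more highly expressed, with mean log2 levels over the 10 samples above those of 71.5% (Dhcr7) to 98.3% (Hmgcs1) of all genes. Levels are log2 values on the scale of CPM, that is, scaled to the total of each sample. Divided by the longest protein-coding transcript in GENCODE M21, linear levels per kilobase in the 5 wild types were 132 ± 5.77 (SD, n = 5) for Hmgcs1 and 78.2 ± 7.65 for Fdps. They were 57.6 ± 2.54 for Sqle, 50.1 ± 7.001 for Idi1, 29.2 ± 1.40 for Insig1, 21.8 ± 2.64 for Fdft1 and 21.7 ± 2.37 for Dhcr7. The wild-type ranges of Sqle and Idi1 overlapped, as did those of Fdft1 and Dhcr7, so the order within each pair is not resolved. The order also depends on the transcript length used, and which transcripts were expressed was not tested. Before division the means of Sqle (159) and Idi1 (152) lay above that of Fdps (108), and that of Fdft1 (80.5) above that of Insig1 (78.8).

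None of the 7 genes passed the threshold of an adjusted p under 0.05 in limma in the null or in the missense comparison, where 0.162% and 0.0203% of all genes did. At an unadjusted p under 0.05 the count was 0 of 7 in each, against 8.32% of all genes in the null and 5.54% in the missense comparison. In the null samples 6 of the 7 were lower than in wild type and 1 was higher, where 45.3% of all genes were lower and 54.6% higher. The median log2 change of the 7 was -0.04 (0.0137 without null 2 and -0.13 without null 1), where the median of all genes was 0.03. In the missense samples 5 were lower and 2 higher, where 46.0% of all genes were lower and 54.0% higher. The median of the 7 was -0.05 (-0.0049 without missense 3 and -0.0910 without missense 2) against 0.02 for all genes. The 95% intervals of the 7 genes in both comparisons lay between 0.743-fold (Fdps, null) and 1.40-fold (Fdft1, null). They are intervals of single genes without adjustment, and they use a spread pooled over the 4 groups.

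**Figure D1:**
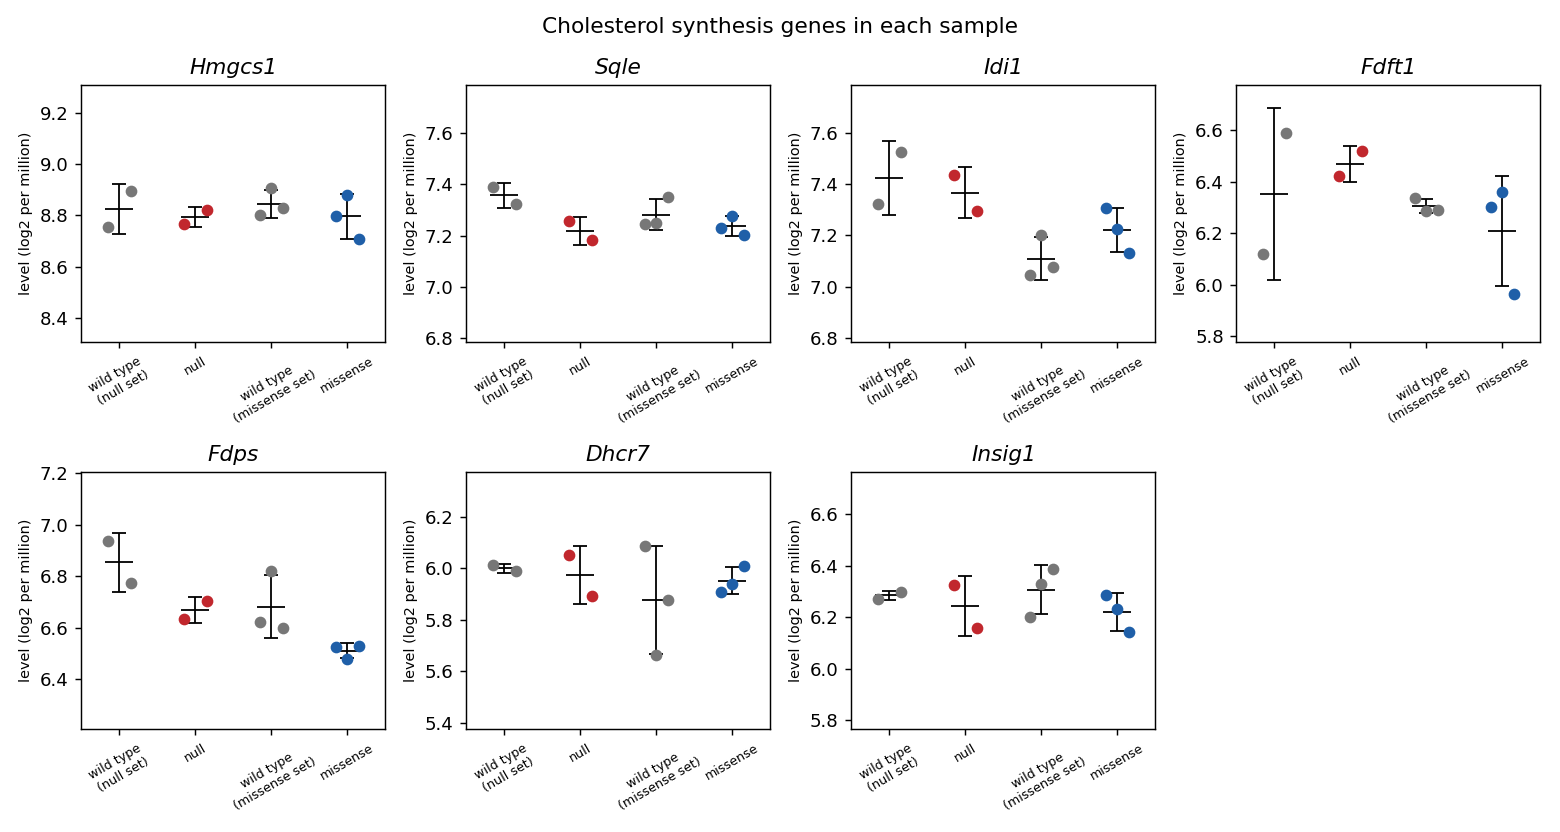
Log2 level on the CPM scale (y axis, each panel spanning 1 log2 unit) of each of the 7 genes in the 4 groups (x axis). Points are samples, the horizontal bar is the group mean and the error bar 1 SD (n = 2 for the null set, n = 3 for the missense set). Fdps is the gene in which every mutant lies below every wild type of its own set.

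Fdps, farnesyl diphosphate synthase, makes the last isoprenoid before the pathway commits to sterols, and it was the gene with the most regular difference. Its log2 level was 6.94 in wild type 1 and 6.77 in wild type 2, and 6.63 in null 1 and 6.70 in null 2. In the missense set it was 6.62, 6.82 and 6.60 in wild types 3, 4 and 5, and 6.53, 6.48 and 6.53 in missense 1, 2 and 3. Within each set every mutant sample lay below every wild type.

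The log2 change of Fdps was -0.19 in null (SE 0.11, n = 2 against 2, limma adjusted p = 0.726) and -0.17 in missense (SE 0.09, n = 3 against 3, limma adjusted p = 0.902). Exact permutation, 2-sided, gave p = 0.333 for null and 0.1 for missense, each the smallest its design allows. The mean of both effects, each mutant against its own set, was -0.18 (95% interval -0.33 to -0.02, 0.884-fold). Its unadjusted limma p was 0.0300 and its adjusted p 0.407, where 0.27% of all genes passed after adjustment and 10.7% before. An exact 2-sided permutation test of that mean over the 120 arrangements within sets gave p = 0.0167, the smallest possible, which complete separation in both sets gives by itself. The same exact permutation test gave p = 0.0667 for Sqle, 0.233 for Insig1, 0.333 for Hmgcs1, 0.7 for Idi1, 0.767 for Dhcr7 and 0.917 for Fdft1.

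Both null samples lay below both of their wild types in 2 of the 7 genes, Sqle and Fdps, and in 14.8% of all genes, and above them in 0 of 7 and 22.9%. Every missense sample lay below its wild types in 1 of the 7, Fdps, and in 4.89% of all genes, and above them in 0 of 7 and 6.02%. Fdps was below in both sets, as were 1.38% of all genes, while 2.47% of all genes were above in both. Wild types 3, 4 and 5 had a mean Fdps level that was -0.17 from that of wild types 1 and 2 (SE 0.10, limma adjusted p = 0.754), a size like that of its change in either mutant.

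Hmgcs1, the synthase that forms HMG-CoA at the entry to the pathway, was the most highly expressed of the 7 and among the least variable. Its log2 level was 8.76 in wild type 1, 8.89 in wild type 2, 8.77 in null 1 and 8.82 in null 2. In wild types 3, 4 and 5 it was 8.80, 8.91 and 8.83, and in missense 1, 2 and 3 it was 8.80, 8.88 and 8.71. Mutant and wild-type values overlapped in both sets.

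The change of Hmgcs1 was -0.03 in null (95% interval -0.23 to 0.17, limma adjusted p = 0.963) and -0.05 in missense (-0.21 to 0.11, adjusted p = 0.960). Without wild type 2 the null value was 0.04. The changes in null and in missense were smaller than the spread of Hmgcs1 between samples of the same group (residual SD 0.07).

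Idi1, the isomerase that interconverts the isoprenoid building blocks, differed more between the sets than with genotype. Its log2 level was 7.32 and 7.52 in wild types 1 and 2 and 7.44 and 7.30 in null 1 and 2. In the missense set it was 7.05, 7.20 and 7.08 in wild types 3, 4 and 5 and 7.31, 7.23 and 7.13 in missense 1, 2 and 3. Wild types 3, 4 and 5 all lay below wild types 1 and 2, as they did in 1 of the 7 genes and 9.76% of all genes, and they lay above in 0 of the 7 and 13.7%. Mutants overlapped with wild types within each set.

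Idi1 differed by -0.31 between the wild types of the missense set and those of the null set (SE 0.10, limma adjusted p = 0.510). It was the 1 of the 7 genes with an unadjusted p under 0.05 in that comparison, against 7.37% of all genes, and 0 of the 7 passed after adjustment, against 0.0946%. The change was -0.06 in null (SE 0.11, limma adjusted p = 0.932) and 0.11 in missense (SE 0.09, adjusted p = 0.929). The null value was 0.05 without wild type 2 and 0.01 without null 2. Without a term for the set the values were 0.13 in null and -0.01 in missense, with the opposite signs.

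Sqle, squalene epoxidase, which oxidises squalene and is a slow step of the pathway, had the narrowest spread of the 7. Its log2 level was 7.39 and 7.32 in wild types 1 and 2, and 7.26 and 7.18 in null 1 and 2, so that both null samples lay below both wild types. In the missense set it was 7.24, 7.25 and 7.35 in wild types 3, 4 and 5, and 7.23, 7.28 and 7.20 in missense 1, 2 and 3, and the groups overlapped. The change was -0.14 in null (SE 0.09, limma adjusted p = 0.751) and -0.04 in missense (SE 0.07, adjusted p = 0.960). The mean of both effects was -0.09.

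Fdft1, squalene synthase, which takes farnesyl diphosphate into the sterol branch, was the most variable of the 7. Wild type 1 stood at 6.12 and wild type 2 at 6.59, with null 1 at 6.42 and null 2 at 6.52 between them. Wild types 3, 4 and 5 were at 6.34, 6.29 and 6.29, missense 1 and 2 at 6.30 and 6.36, and missense 3 at 5.96, the lowest of the 10 samples. The null change of 0.12 (95% interval -0.25 to 0.49) was -0.12 without wild type 1, and the missense change of -0.10 (-0.40 to 0.21) was 0.03 without missense 3. Each sign thus rested on 1 sample.

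Dhcr7, the reductase that finishes cholesterol, and Insig1, the feedback protein that is itself a target of SREBP2, showed small differences in both comparisons. The log2 level of Dhcr7 was 6.01 and 5.99 in wild types 1 and 2, 6.05 and 5.89 in null 1 and 2, 6.09, 5.67 and 5.88 in wild types 3, 4 and 5, and 5.91, 5.94 and 6.01 in missense 1, 2 and 3. All mutant values of the missense set lay inside the range of their wild types. Its change was -0.03 in null (95% interval -0.34 to 0.28) and 0.08 in missense (-0.18 to 0.33), and was 0.05 in null without null 2 and -0.03 in missense without wild type 4.

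The log2 level of Insig1 was 6.27 and 6.30 in wild types 1 and 2, 6.33 and 6.16 in null 1 and 2, 6.20, 6.33 and 6.39 in wild types 3, 4 and 5, and 6.29, 6.23 and 6.14 in missense 1, 2 and 3. Null 1 was the highest and null 2 the lowest of the null set, and the missense samples overlapped with their wild types. The change was -0.04 in null (95% interval -0.29 to 0.21) and -0.09 in missense (-0.29 to 0.12), and the null value was 0.04 without null 2.

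**Figure D2:**
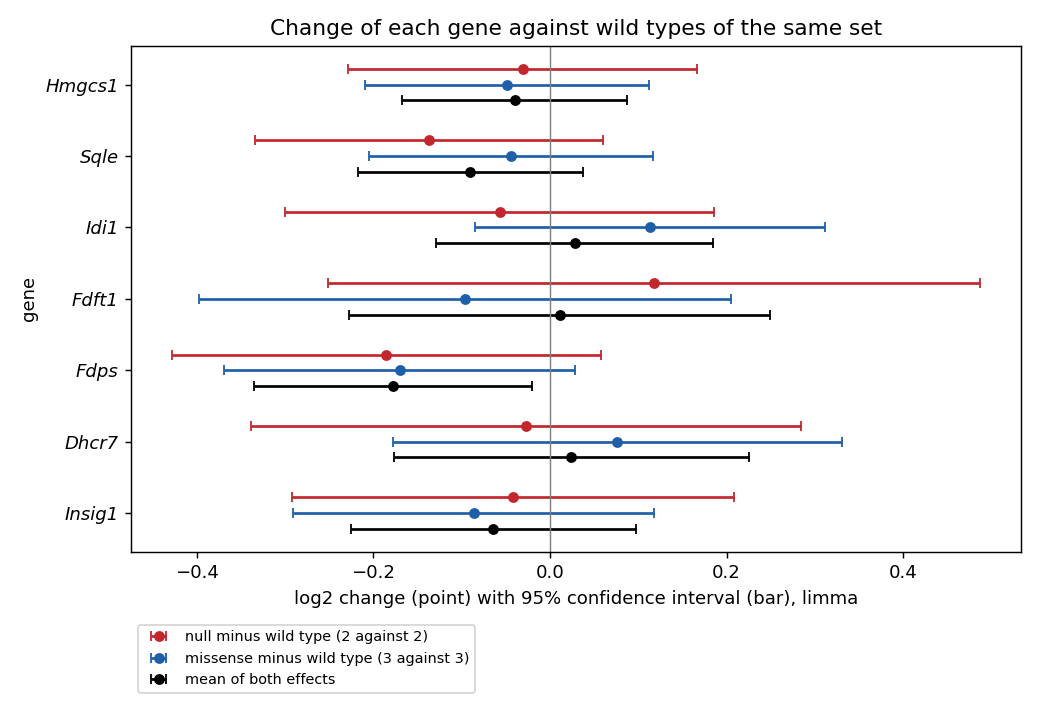
Log2 change (x axis) of each of the 7 genes (y axis) in null, in missense and as the mean of both effects, from limma, with 95% confidence intervals as bars. All intervals for null and for missense hold 0, and the interval of the mean of both effects lies below 0 for Fdps alone of the 7.

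The effect of the missense allele was also tested against that of the null allele. The difference between the effects ranged from -0.21 for Fdft1 to 0.17 for Idi1, with limma adjusted p of 1 for all 7 after rounding. For Fdps it was 0.02 (95% interval -0.30 to 0.33). None of the 7 passed before or after adjustment, against 4.13% and 0.0135% of all genes.

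The spread behind these values was small. The residual SD within groups ran from 0.05 (Sqle) to 0.19 (Fdft1) on the log2 scale, and 6 of the 7 genes had a smaller one than the median of the genes nearest to them in level. Summed on the linear scale, the 7 genes made up 1093 and 1168 CPM in wild types 1 and 2 and 1093 and 1082 in null 1 and 2. The sums were 1051, 1102 and 1070 in wild types 3, 4 and 5, and 1063, 1084 and 996 in missense 1, 2 and 3. The group means were 1131 ± 52.7 (SD, n = 2) and 1088 ± 8.39 in the null set, and 1074 ± 25.4 (SD, n = 3) and 1048 ± 46.0 in the missense set. The sums of mutants and wild types overlapped in each set, but in the null set only barely, with null 1 at 1093.43 and wild type 1 at 1093.39. Hmgcs1 made up the largest part of the sums, with group means of 444 to 460.

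The 7 genes did not vary as a block from sample to sample. After the mean of each set was taken off, 12 of the 21 pairs had a Pearson r above 0 over the 10 samples, with a median of 0.15. The highest was 0.77, between Hmgcs1 and Fdft1, and the lowest -0.59, between Hmgcs1 and Dhcr7. Dhcr7 also had a negative r of -0.26 with the mean of the 7 scaled profiles, while Insig1 had 0.77 and Hmgcs1 0.73. These values are descriptions over 10 libraries, and the genes of each library share its depth, its scaling and the cell makeup of its sample.

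The genes whose pattern over the 10 samples was most like the mean of the 7 were picked from 10716 other genes by Pearson r. They were Eomes, a T-box factor of intermediate progenitors (r = 0.94), Dll1, a Notch ligand (0.94), Yy1 (0.94), Arhgef7 (0.94), Nav1 (0.93), Kif21b (0.92), Unc13a (0.92), Slit1 (0.92), Gsk3b (0.92) and Rai2 (0.91). These are the highest of 10716 values over 10 samples, a description with no test. Among the 7 themselves, r with that mean was at most 0.77 (Insig1) and was 0.32 for Fdps. The mean profile was lowest in missense 3 (-0.86) and null 2 (-0.64) and highest in wild type 2 (0.70).

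A wider list of 66 other genes of sterol and lipid metabolism gave the setting of the 7. In limma 0 of the 66 passed after adjustment in the null comparison, where the unadjusted p was under 0.05 for 4 that were higher and 0 that were lower (6.06%, against 8.32% of all genes). In the missense comparison 0 passed, and the unadjusted p was under 0.05 for 1 higher and 4 lower (7.58%, against 5.54% of all genes). The median change of the 66 was 0.06 in null and -0.01 in missense.

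Within cholesterol synthesis, the early mevalonate steps, from acetyl-CoA to the isoprenoids, had a median of -0.03 in null and -0.05 in missense over 9 genes, with 0 called in either direction. Mvd, a decarboxylase of that stretch, had -0.20 in missense (SE 0.14) and Mvk, the mevalonate kinase, -0.11 in null (SE 0.12). The late steps, from lanosterol to cholesterol, had medians of 0.07 and -0.01 over 10 genes, again with 0 called. In that group Ebp had 0.36 in null (SE 0.28) and -0.14 in missense (SE 0.23). Hsd17b7 had 0.22 in null (SE 0.20) and -0.30 in missense (SE 0.16), and Nsdhl had -0.07 (SE 0.13) and -0.19 (SE 0.10). Cyp51, the lanosterol demethylase, had 0.09 in null (SE 0.09). Lss, which closes the sterol rings, had -0.24 in null (SE 0.26) and 0.09 in missense (SE 0.21).

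Among 10 genes that control SREBP, Srebf2, which encodes SREBP2, had -0.13 in null (SE 0.11), and Srebf1 had 0.20 in null (SE 0.18) and 0.21 in missense (SE 0.15). The list had medians of 0.02 in null and 0.03 in missense, and 0 of its genes passed after adjustment. Of 12 genes of fatty acid synthesis 0 passed, with Acss2 at -0.45 (SE 0.15) and Elovl6 at -0.27 (SE 0.10) in missense, each with limma adjusted p = 0.884. Pggt1b, in a list of isoprenoid branches, had 3.02 in null with an SE of 1.93, so its value is not resolved.

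Of 13 genes of cholesterol uptake and transport, 11 had higher values in null and 7 in missense, where 8081 and 7992 of all 14796 genes did. Their median was 0.14 in null and 0.05 in missense, and 0 passed in limma after adjustment in either. The unadjusted limma p was under 0.05 for 3 higher and 0 lower in null (23.1%, against 8.32% of all genes). In missense it was under 0.05 for 1 higher and 1 lower (15.4%, against 5.54%). Lrp1, a large endocytic receptor, had 0.48 in null (SE 0.17, unadjusted p = 0.0151, adjusted p = 0.436) and 0.26 in missense (SE 0.13). Mylip, a ligase that sends lipoprotein receptors to degradation, had 0.58 in null (SE 0.26) and 0.53 in missense (SE 0.21). Lrp8, a neuronal receptor of reelin and apolipoprotein E, had -0.30 in missense (SE 0.13). Among 9 genes of efflux and LXR signalling, Apoe had 0.74 in null (SE 0.28, limma adjusted p = 0.482) and 0.22 in missense (SE 0.23).

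In null, summed levels of the markers of several other cell types lay apart from those of its wild types. Among all genes, 14.8% lay apart with null lower and 22.9% with null higher. In missense the sums of surface epithelium, choroid plexus, mesenchyme and neuron markers overlapped with wild type. Sums of erythroid, neural progenitor and oligodendrocyte lineage markers overlapped in both sets, and those of endothelium and pericyte markers in missense only. In limma 1 telencephalon marker passed after adjustment in null, as given below. Of the microglia, surface epithelium, choroid plexus, mesenchyme and neuron markers, 0 passed in limma after adjustment in either comparison. At an unadjusted p under 0.05 in null the counts were 8 of 10, 5 of 6, 5 of 6, 5 of 8 and 3 of 10, against 8.32% of all genes. In missense they were 6, 1, 2, 1 and 0, against 5.54% of all genes. Of 10 microglia and macrophage markers, 10 had higher values in null and 8 in missense, against 54.6% and 54.0% of all genes. Their summed linear level was 129 to 134 in null against 60.8 to 65.7 in its wild types, and 110 to 130 in missense against 79.6 to 95.5. In the mean of both effects 2 of them passed in limma after adjustment, where 0.27% of all genes did. These were Cx3cr1 (0.75, limma adjusted p = 0.0464) and C1qb (1.07, adjusted p = 0.0488). In that mean 0 of the surface epithelium, choroid plexus, mesenchyme and neuron markers passed. The sums of 6 markers of surface and olfactory epithelium were 43.7 to 48.2 in null against 21.8 to 23.8, and 42.3 to 107 in missense against 32.9 to 52.3. Those of 6 choroid plexus markers were 170 to 201 in null against 111 to 122, and 175 to 243 in missense against 176 to 202. The sums of 8 mesenchyme and meninges markers were 2575 to 3492 in null against 1766 to 2074, and 2384 to 3181 in missense against 1900 to 3122. The sums of 10 neuron markers were 2938 to 3252 in null against 3480 to 3938, and 3403 to 4054 in missense against 3954 to 4164. Tyrobp was at the floor of the table in 1 sample. Their part in the values of Apoe, Lrp1, Fdps and the other genes was not tested, and in tissue RNA fewer cells of a type and less RNA per cell cannot be told apart.

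**Figure D3:**
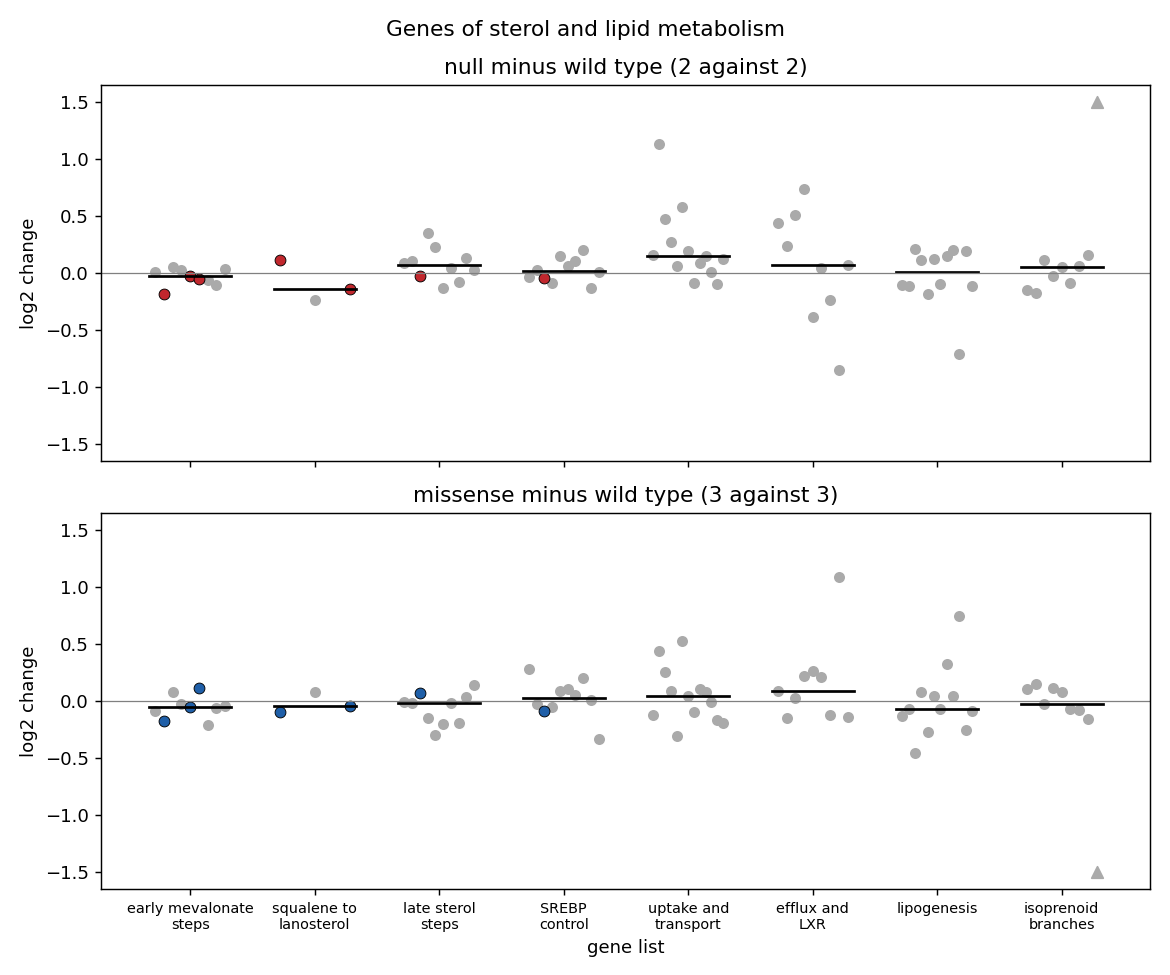
Log2 change (y axis) of single genes in 8 lists of sterol and lipid metabolism (x axis), in null (upper panel) and missense (lower panel). Coloured points are the 7 genes described, grey points the others, and horizontal lines the list medians. Triangles mark Pggt1b, whose values (3.02 in null, -1.51 in missense) were cut to a limit for drawing. The coloured points lie between -0.19 and 0.12.

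The labelled tissue matched its markers, with Lhx2 at 8.53 to 9.01 and Emx2 at 6.27 to 6.89 on the log2 scale over the 10 samples. The summed level of 8 markers of the telencephalon was 1024 to 1238 in null against 1364 to 1504 in its wild types, and 1084 to 1253 in missense against 1305 to 1436. Of the 8, 5 were lower and 3 higher in both comparisons. Only Dlx2 passed in limma after adjustment in null (-1.68, adjusted p = 0.0128), where 0.162% of all genes did. It also passed in the mean of both effects (-1.10, limma adjusted p = 0.00666), where 0.27% did. In missense 0 passed, and Dlx2 was at -0.52. At an unadjusted limma p under 0.05 the counts were 4 of 8 in null and 2 in missense, against 8.32% and 5.54% of all genes. Polr1a was at 5.38 in both wild types of the null set and at 4.99 and 4.82 in null 1 and 2 (change -0.48, SE 0.20, limma adjusted p = 0.563). In the missense set it was at 5.62, 5.51 and 5.64 in wild types 3, 4 and 5 and at 5.09, 5.66 and 5.79 in missense 1, 2 and 3. Sequencing depth is unknown, because the table holds scaled values only.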

How the data were processed

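The authors deposited 1 table of log2 values for 14797 genes in 10 samples, filtered and normalized by the authors per its name, of which 1 gene without a name was left out. That the values are log2 of CPM, reads scaled to the total of each sample, with a small offset, was read from the values. The build GRCm39 is named in the submitters' processing notes, and no source used here names the aligner or the counting tool. A model with 4 groups (genotype by title number) was fitted in limma 3.58.1 (R 4.3.3) to all 14796 genes, with variances that follow a trend on the level, 6 residual and 4.83 prior degrees of freedom, 2-sided tests and Benjamini-Hochberg adjustment over all genes. The script was checked on simulated data. Alternatives were another scaling, filter, offset or variance model, sample weights, a Y-linked covariate, no set term, 1 set alone and leaving out each sample. The 7 genes and the lists were chosen with earlier results of these data known. Named genes of each list were up to 3 of smallest p, and some list genes are not reported here. Genes like the 7 in pattern were the 10 of highest Pearson r at or above the 25th percentile of level, without predicted models or pseudogenes. Figures were drawn with matplotlib 3.10.9 in Python 3.11.15.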

Additional observations from a re-analysis of the deposited data

How the results depend on the processing

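Under all alternatives 0 of the 7 genes reached an adjusted p under 0.05 in any comparison (672 fits of single genes), and 43 of these fits had the opposite sign to the reported value. The unadjusted p of the mean of both effects on Fdps was under 0.05 in 14 of 19 alternatives, with adjusted p from 0.307 to 0.681, and its value ran from -0.22 to -0.14. With 1 sample left out, the median change of the 7 ran from -0.13 (without null 1) to 0.0137 (without null 2) in null, from -0.0910 (without missense 2) to -0.0049 (without missense 3) in missense, from -0.0141 (without wild type 3) to 0.0680 (without wild type 2) for the difference and from -0.0737 (without wild type 1) to -0.0050 (without wild type 2) for the mean effect. Between wild types it ran from -0.11 (without wild type 5) to -0.0388 (without wild type 4). Under the other alternatives the medians moved by less than the spread between samples of the same group. That spread was the residual SD within the 4 groups, 0.0407, of the median of the 7 after the mean of each gene was taken off.

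Over all genes, the null count of 24 was 59 without the set term, 6 without the variance trend, 0 with the null set alone (1101 genes at an unadjusted p under 0.05 in limma) and 2 to 23 when 1 sample was left out, the lowest without null 2, with 12, 7, 8, 12 and 14 without wild types 1, 2, 3 and 5 and missense 2. The missense count of 3 ran from 2 to 10, with 10 without wild type 4 and 6 without null 1 or null 2. The count of 2 for the difference of effects was 9 without the set term, 1 with median-centred samples, 0 without the trend (646 at an unadjusted p under 0.05 in limma), 4 with the Y-linked covariate and 1 to 10 with 1 sample left out, the highest without wild type 4. The count of 40 for the mean effect was 13 without the trend and 10 to 29 with 1 sample left out, the lowest without wild type 3. The count of 14 between wild types was 8 with the level filter and 7 to 21 with 1 sample left out, the lowest without wild type 3.

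Signs turned without the set term in null for Idi1 (0.13) and Dhcr7 (0.0469), in missense for Idi1 (-0.0122), and in the difference for Hmgcs1 (0.0023), Idi1 (-0.14), Fdps (-0.16) and Dhcr7 (-0.0203). They turned in the difference for Fdps with the Y-linked covariate (-0.0187), and in the mean effect with median-centred samples for Idi1 (-0.0013), Fdft1 (-0.0184) and Dhcr7 (-0.0052) and with sample weights for Dhcr7 (-0.0027). With 1 sample left out, null values ran from -0.10 to 0.0387 for Hmgcs1, -0.16 to 0.0452 for Idi1, -0.12 to 0.35 for Fdft1, -0.11 to 0.0523 for Dhcr7 and -0.13 to 0.0416 for Insig1. Missense values ran from -0.17 to 0.0265 for Fdft1 and -0.0298 to 0.18 for Dhcr7. Differences ran from -0.0874 to 0.0519 for Hmgcs1, -0.45 to 0.0216 for Fdft1, -0.0663 to 0.0965 for Fdps, -0.0024 to 0.21 for Dhcr7 and -0.13 to 0.0385 for Insig1. Mean effects ran from -0.0228 to 0.0792 for Idi1, -0.11 to 0.13 for Fdft1 and -0.0286 to 0.0769 for Dhcr7. Wild-type differences ran from -0.0496 to 0.0897 for Hmgcs1, -0.28 to 0.19 for Fdft1 and -0.0183 to 0.0747 for Insig1. The cause of these shifts was not tested. Depth is unknown, so no counting error is given, and a sample left alone in its group was taken to vary like the others.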
